A study of Mus musculus with 6 samples.

Results

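miR-103 and miR-107 are a pair of nearly identical microRNAs that are processed from introns of the pantothenate kinase genes, which encode the enzymes that start coenzyme A synthesis. As background, a microRNA binds messenger RNAs mainly through its seed, bases 2 to 8, and lowers their translation or stability. In liver and fat, this pair is known for reducing insulin sensitivity when its level is high, in part through caveolin-1, and it is also known to target Dicer, the enzyme that makes mature microRNAs. The mouse array carried 4 miRNAs whose names fall under miR-103 or miR-107, of 1247 mouse miRNAs in all. These were the 3p strands, mmu-miR-103-3p and mmu-miR-107-3p, here written without the species prefix, which are the main products of the precursors, and the 5p strands miR-103-1-5p and miR-107-5p. The rule that picked them uses names alone.

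Total liver RNA of 6 male C57BL/6 mice was profiled, 1 liver to an array. Of these, 3 were injected intraperitoneally with CCl4 (carbon tetrachloride, a hepatotoxic solvent used to induce fibrosis) at 0.6 mL/kg, dissolved in corn oil, and 3 controls with the vehicle at equal volume. The mice were 7 weeks old at the first injection, were treated 2 times a week for 10 weeks, and were killed 48 h after the last dose. Whole liver was used, so that fewer cells of a type and less RNA per cell cannot be told apart.

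miR-103-3p is encoded by Mir103-1, within the span of Pank3 on chromosome 11, and by Mir103-2, within Pank2 on chromosome 2, whereas miR-107-3p comes from Mir107, within Pank1 on chromosome 19 (RefSeq, GRCm38.p6). Coordinates are not given, because the array design names another build, mm9. The precursors are shown first, from RefSeq, because the same 3p product is cut from different loci. The capitals mark the mature 3p strand.
Mir103-1: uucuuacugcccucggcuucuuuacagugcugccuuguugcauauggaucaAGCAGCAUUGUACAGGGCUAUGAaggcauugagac
Mir103-2: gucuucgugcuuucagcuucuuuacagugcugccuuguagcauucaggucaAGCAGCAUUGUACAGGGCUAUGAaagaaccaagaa
Mir107: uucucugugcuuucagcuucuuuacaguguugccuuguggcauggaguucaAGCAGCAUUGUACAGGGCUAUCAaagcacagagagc

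The mature strands follow, with the seed in capitals, because the results turn on how little the pair differs.
miR-103-3p: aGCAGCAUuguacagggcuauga
miR-107-3p: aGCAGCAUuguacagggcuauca
miR-103-1-5p: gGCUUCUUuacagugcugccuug
miR-107-5p: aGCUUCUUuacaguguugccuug
The 3p strands shared 22 of 23 bases and the whole seed. The only substitution was G22C, counted from 1 at the 5′ end of miR-103-3p, the base before the last. miR-103-3p from Mir103-1 and from Mir103-2 has the same sequence, and these sources cannot be told apart. The 5p strands on the array differed by G1A and C16U and also shared a seed. Of 1017 array miRNAs with a mature sequence in the RefSeq table, 2 carried the seed of miR-103-3p, namely the pair itself.

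Both 3p strands were measured well above background on every array, and both 5p strands were undetected on every array. For miR-103-3p and miR-107-3p all 40 spots on each of the 6 arrays were well above background and none was saturated. For miR-103-1-5p and miR-107-5p the scanner software set the total signal to 0.1, its value for an undetected miRNA, on all 6 arrays, with at most 2.5% of their spots well above background. The 5p strands were therefore not part of any test, and no difference between the groups was detectable for them.

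The total signal is the background-subtracted intensity that the scanner software gives for a miRNA, on a linear scale and not normalized between arrays. It adds up the totals of the probes of that miRNA, which the software derives from their spots and which are not sums over spots. For miR-103-3p the total signal was 115, 102 and 118 in the controls and 143, 130.04 and 789 after CCl4. All CCl4 arrays lay above all corn oil arrays, 2 of them by little and the third CCl4 array by far, an order that 63.3% of the 166 miRNAs detected on every array shared. For miR-107-3p the total signal was 167, 138 and 152 in the controls and 154, 159 and 629 after CCl4. Here the first and second CCl4 arrays lay within the range of the corn oil arrays, and the third lay far above it. The error that the software gives for a single total signal was between 7.63% and 8.01% of the signal for both miRNAs.

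The third CCl4 array stood apart for the whole series and not for this pair alone. Relative to the corn oil mean of each miRNA, its median signal over the 166 miRNAs detected on all 6 arrays was 4.14-fold, against 1.45-fold and 1.26-fold on the first and second CCl4 arrays. miR-103-3p was at 7.07-fold and miR-107-3p at 4.13-fold on this array. For the brighter probe of miR-103-3p the spot median there was 1510 and the probe total 581. On the first corn oil array they were 301 and 84.4. The brighter probe of miR-107-3p gave 1205 and 465, against 405 and 115. The total was thus a larger part of the spot signal on the third CCl4 array, and the part of this in the folds was not tested. The rank correlation of the third CCl4 array with the other CCl4 arrays was 0.856 and 0.860, whereas those correlated with each other at 0.979. The hepatocyte markers, 5 of 5 on the array and led by miR-122-5p, were detected on all corn oil arrays. Their summed signal lay between 18947 and 20847 in the controls. It was 14955 and 17730.0 on the first and second CCl4 arrays, and 2749.8 on the third, where 4 of the 5 were detected. The mesenchymal markers, 6 of 6 on the array, with miR-145a-5p undetected in all controls, summed to between 67.2 and 109 in the controls and between 255 and 1236 after CCl4. The corresponding ranges were 101 to 119 and 429 to 694 for 7 immune markers, with miR-150-5p and miR-155-5p undetected in all controls, 466 to 754 and 315 to 2135 for 2 of 3 red cell markers, and 563 to 677 and 821 to 3732 for 2 endothelial markers. These sums are not adjusted for the brightness of the arrays. After quantile normalization the median log2 change of the tested markers was -1.73 for hepatocyte, 1.31 for mesenchymal and 0.69 for immune markers. It was -0.55 for red cell and 0.13 for endothelial markers, against -0.14 over all miRNAs tested. The part of these shifts in the results for the pair was not tested. All arrays lay on 1 slide, with each treatment in a row of its own, so that position and treatment cannot be told apart.

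**Figure D1:**
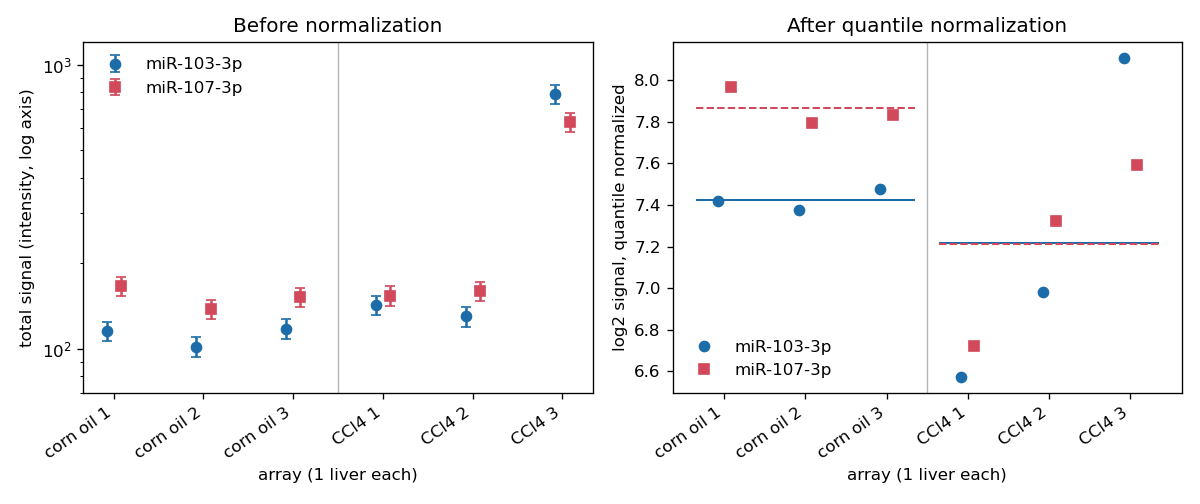
Signals of miR-103-3p (circles) and miR-107-3p (squares) on the 6 arrays, 1 liver each. Left, the total signal as an intensity on a log axis with the error given by the scanner software. Right, the log2 signal after quantile normalization, with lines at the group means. The third CCl4 array holds the highest total signals, 789 and 629, and after normalization miR-107-3p is lower on all CCl4 arrays than on any corn oil array.

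To compare the groups, limma was run on quantile-normalized log2 total signals of the 166 miRNAs with a detection flag on every array. A call needed a Benjamini-Hochberg adjusted p below 0.05 together with a change of more than 2-fold, and neither 3p strand was called. In this fit 20 of 166 miRNAs were called, 12%, of which 12 were higher (7.23%) and 8 lower (4.82%) after CCl4. The adjusted p alone was passed by 22 miRNAs, 13.3%, of which 9 (5.42%) were lower. The lower calls depended on the scaling, as without normalization 18 miRNAs were called higher and 0 lower.

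The normalized log2 signal of miR-103-3p was 7.42, 7.38 and 7.48 in the controls and 6.57, 6.98 and 8.11 after CCl4. The first and second CCl4 arrays were below the corn oil arrays and the third was above them, so that the groups overlapped. The change was -0.21 on the log2 scale (standard error 0.41, 95% interval -1.23 to 0.82, limma adjusted p = 0.76, n = 3 livers per group). The SD was 0.79 after CCl4 and 0.05 in the controls.

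The normalized log2 signal of miR-107-3p was 7.97, 7.79 and 7.83 in the controls and 6.72, 7.32 and 7.59 after CCl4. Every CCl4 array was below every corn oil array. The same holds for 24.7% of all 166 miRNAs, so that this order is not particular to miR-107-3p. The change was -0.65 on the log2 scale (standard error 0.25, 95% interval -1.29 to -0.02), and the adjusted p over all miRNAs was 0.16 by limma (n = 3 livers per group). The change was larger than the SD of either group, 0.09 for corn oil and 0.45 for CCl4, but it did not pass the adjusted threshold.

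Both tests rested on 1 liver. Without the third CCl4 array, miR-103-3p fell by 0.64 on the log2 scale (limma adjusted p = 0.028) and miR-107-3p fell by 0.84 (adjusted p = 0.037), which is 1.56-fold and 1.79-fold lower and under the 2-fold limit. In that fit 87 of 166 miRNAs, 52.4%, passed the adjusted p, and 56 of them, 33.7%, had a lower signal, so the pair was among many. Both criteria were met by 28 miRNAs, 16.9%, with 9.64% higher and 7.23% lower. Without the first CCl4 array the change of miR-103-3p turned to 0.12 (adjusted p = 0.86), and that of miR-107-3p was -0.41 (adjusted p = 0.25).

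The direction also rested on the normalization between arrays. Without any, the change was 1.13 for miR-103-3p and 0.71 for miR-107-3p, while the median over all 166 miRNAs moved from -0.14 to 0.99. Relative to that median, miR-103-3p differed by -0.06 after quantile normalization and by 0.14 without normalization, both small beside its standard errors of 0.41 and 0.72. miR-107-3p differed from the median by -0.51 and -0.28, on the lower side both times. With each array scaled to the 75th percentile of the miRNAs detected on all arrays, the change of miR-103-3p was -0.02 and that of miR-107-3p -0.44 (limma adjusted p = 0.98 and 0.23).

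**Figure D2:**
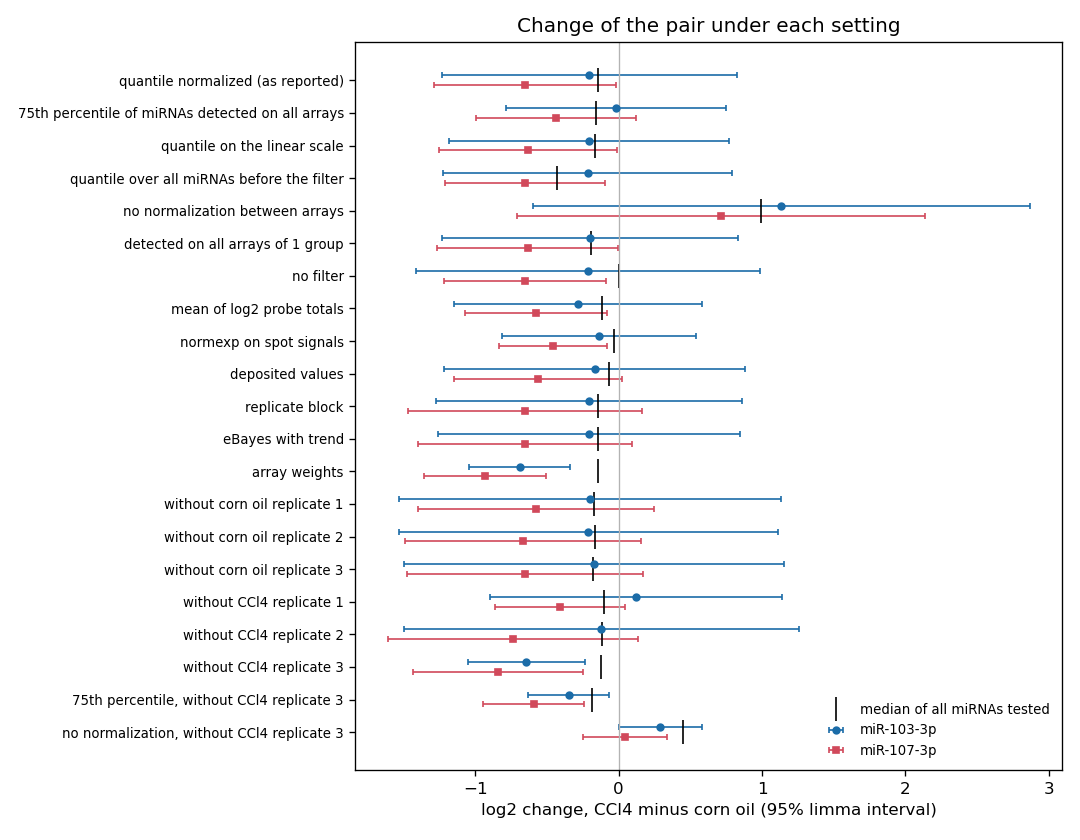
Change of miR-103-3p (circles) and miR-107-3p (squares) under each processing setting, as log2 CCl4 minus corn oil with the 95% interval of limma. The vertical ticks are the median change of all miRNAs in that fit. Scaling to the 75th percentile over all miRNAs is not drawn. The change of miR-107-3p lies below that of miR-103-3p in every setting shown, and both are above 0 only without normalization, apart from miR-103-3p at 0.12 without CCl4 replicate 1.

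The ratio of the pair within an array does not depend on how arrays are scaled to each other, and it shows whether the changes of both were equal. The log2 ratio of the total signal of miR-103-3p to that of miR-107-3p was -0.53, -0.44 and -0.37 in the controls and -0.11, -0.29 and 0.33 after CCl4. The groups did not overlap, with all CCl4 arrays higher and the third farthest away. The mean was -0.45 ± 0.08 in the controls and -0.03 ± 0.32 after CCl4 (SD, n = 3 livers per group). The difference was 0.42, or a 1.34-fold higher ratio, with p = 0.1 in an exact two-sided permutation test, the smallest p that 3 livers against 3 can give. The error of this ratio was computed from the errors that the software gives for both total signals, taken as independent. It was 0.16 on each array, more than the gap between the nearest arrays of the groups, at -0.37 and -0.29.

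The same holds for many other miRNAs. Of the 165 others, 53 or 32.1% had a ratio to miR-107-3p that was higher on every CCl4 array than on any corn oil array, and 68 or 41.2% did not overlap in either direction. Without the third CCl4 array the difference was 0.24, or 1.18-fold. The groups still did not overlap, but the share of other miRNAs with such a gap was not counted for these arrays. The p was 0.2 in the exact permutation test, the smallest possible without that array. In the values that the authors deposited, the difference was 0.39 and the groups overlapped.

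The array measures each of these miRNAs with 2 probes of 20 spots each, which allows a check within each miRNA. For miR-103-3p the ratio of the brighter to the dimmer probe was 2.73, 2.83 and 2.78 in the controls and 2.76, 2.78 and 2.78 after CCl4. This ratio was steady over all 6 arrays, with a coefficient of variation of 1.13%, although the total signal ranged from 102 to 789. For miR-107-3p the ratio of the probes was 2.23, 2.19 and 2.17 in the controls and 2.42, 2.30 and 2.83 after CCl4. It was higher on every CCl4 array than on any corn oil array, with a coefficient of variation of 10.5%. The difference was 0.19 on the log2 scale (p = 0.1, exact two-sided permutation test, the smallest possible). Among 157 miRNAs with 2 probes and detection on all arrays, the ratio of the probes did not overlap between the groups for 45, or 28.7%. The arrays on which the probe ratio of miR-107-3p was highest, the third and then the first CCl4 array, were also those with the highest ratio of miR-103-3p to miR-107-3p, and the part of the probes in that ratio was not tested.

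The difference between the pair depended on the probes taken. With the brighter probe of each miRNA, the log2 ratio differed by 0.36 between the groups, and with the dimmer probe by 0.56. The groups did not overlap with either, and the share of other miRNAs for which this holds was not counted. Binding of one miRNA to the probes of the other was not tested, and probe sequences were not used here.

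**Figure D3:**
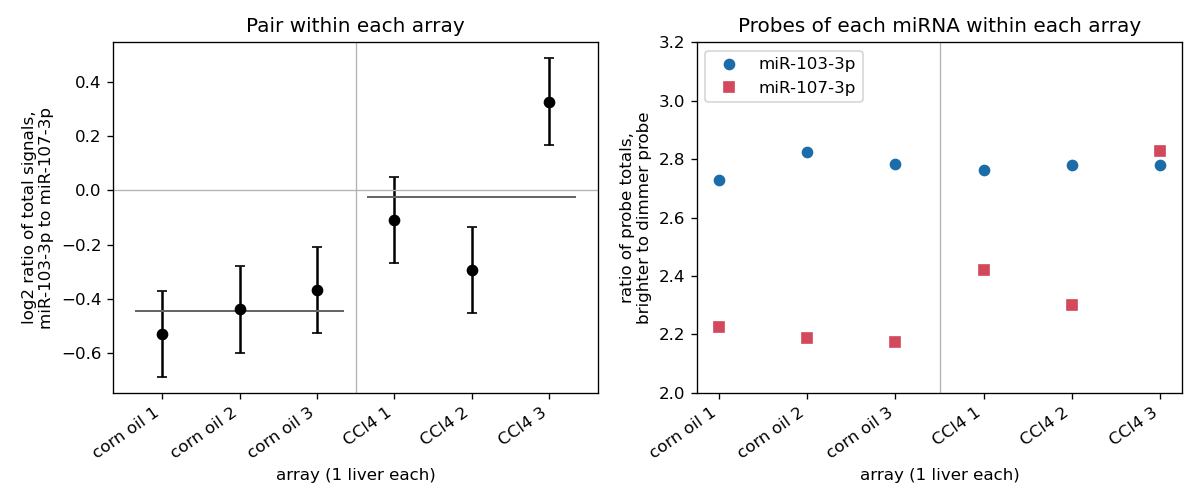
Ratios within each array, 1 liver each. Left, the log2 ratio of the total signal of miR-103-3p to miR-107-3p, with lines at the group means of -0.45 and -0.03. The error bars combine the errors given by the scanner software for both total signals. Right, the ratio of the brighter to the dimmer probe of miR-103-3p (circles) and miR-107-3p (squares), on an axis that starts at 2, where miR-103-3p stays near 2.78 and miR-107-3p reaches 2.83 on the third CCl4 array.

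Although nearly identical in sequence, the pair did not have the most similar patterns over the arrays. Likeness was measured as the SD over the 6 arrays of the log2 ratio of the total signals, where 0 means parallel signals, and it is a description without a test. For miR-103-3p the lowest SD was 0.06 for let-7d-5p, followed by 0.08 for miR-99a-5p, 0.10 for miR-26a-5p, 0.10 for let-7a-5p and 0.13 for miR-29a-3p. miR-107-3p held rank 35 of 165 with 0.31, against a median of 0.71 over all miRNAs. For miR-107-3p the lowest SD was 0.06 for miR-101a-3p, followed by 0.06 for let-7g-5p, 0.08 for miR-26b-5p, 0.11 for let-7f-5p and 0.12 for miR-30c-5p. Here miR-103-3p held rank 39 of 165, against a median of 0.57. Without the third CCl4 array, the nearest miRNA was miR-361-5p for miR-103-3p and miR-148a-3p for miR-107-3p, and the partner held rank 47 and 37 with an SD of 0.16.

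The pair belongs to a wider group that includes miR-15 and miR-16, miRNAs that carry AGCAGC within their first bases and share many target genes with miR-103 and miR-107. In the members outside the pair whose sequence was matched, the run starts at base 2 and not at base 1, which gives a different seed, as shown here for miR-15a-5p, miR-16-5p and miR-322-5p beside miR-103-3p, with the seed in capitals.
miR-103-3p: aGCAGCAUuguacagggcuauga
miR-15a-5p: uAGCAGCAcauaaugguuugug
miR-16-5p: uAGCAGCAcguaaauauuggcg
miR-322-5p: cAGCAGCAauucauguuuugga
The run was found within the first 8 bases of 12 of the 1017 matched array miRNAs, 1.18%, on the strand of the miRNA.

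Of the 10 other members listed for this group, 9 were on the array, 6 were detected on all arrays and tested, and 0 were called by limma, where 12% of all miRNAs were. At an unadjusted p under 0.05 limma gave 2 of the 6, miR-15a-5p and miR-16-5p, beside 28.9% of all miRNAs. The median change of the 6 was 0.29, against -0.14 over all miRNAs tested. The summed total signal of the 9 ranged from 760.0 to 879 in the controls and from 1002 to 3698 after CCl4. miR-15a-5p and miR-16-5p, cell cycle regulators encoded next to each other, had changes of -0.57 (adjusted p = 0.069) and -0.37 (adjusted p = 0.12), and both turned positive without normalization, to 0.48 and 0.77. Without the third CCl4 array both passed the adjusted p, at -0.47 and -0.40 (adjusted p = 0.021 each), as did 52.4% of all miRNAs there, with 33.7% lower. The changes were 0.20 for miR-15b-5p, 0.38 for miR-195a-5p and 0.51 for miR-497-5p, with adjusted p between 0.26 and 0.43.

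miR-322-5p, which is known to promote cell cycle exit and muscle differentiation, had total signals of 15.6, 12.9 and 15.0 in the controls and 44.5, 47.6 and 722 after CCl4. The CCl4 arrays were all higher, as for 63.3% of the 166 miRNAs detected on every array, but the third exceeded the others by far. Its change was 1.75 with an adjusted p of 0.18 by limma. Without the third CCl4 array it was 0.88 with an adjusted p of 0.019 by limma, where 52.4% of all miRNAs passed. On the array with the fewest, 55.0% of its spots were well above background. miR-503-5p, its neighbour in the genome, was detected on the third CCl4 array alone, and miR-1907 and miR-6342 were undetected on all arrays.

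**Figure D4:**
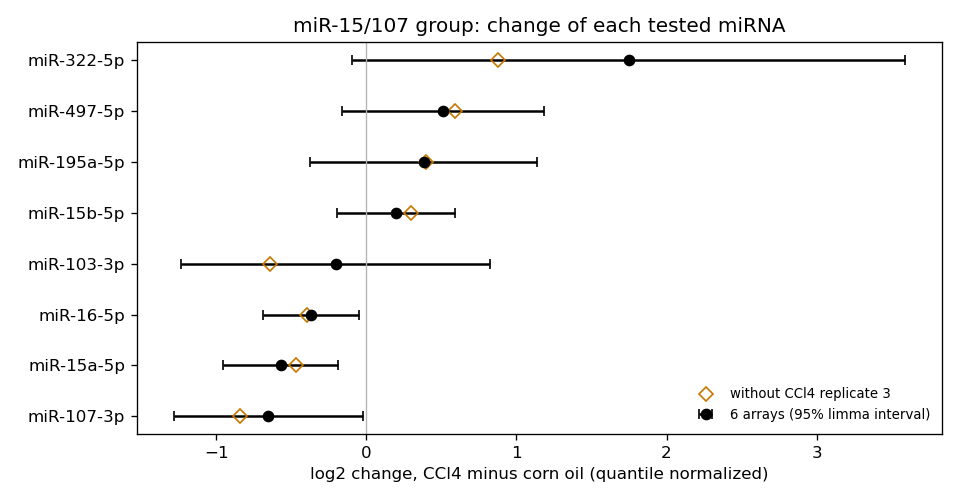
Change of miR-103-3p, miR-107-3p and the 6 other tested miRNAs of the group with miR-15 and miR-16, as log2 CCl4 minus corn oil after quantile normalization, with the 95% interval of limma. Open diamonds give the change without CCl4 replicate 3. miR-107-3p has the lowest change, -0.65, and miR-322-5p the highest, 1.75.

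Among 18 other miRNAs with known roles in lipid, glucose or insulin metabolism of the liver, 15 were tested, of which 1 was called higher, 1 was called lower and 13 were not called by limma, against 7.23% and 4.82% of all miRNAs. The median change was -0.22, against -0.14 over all miRNAs. miR-34a-5p, which targets the deacetylase Sirt1, had total signals of 47.9, 29.9 and 29.3 in the controls and 219, 158 and 752 after CCl4. All CCl4 totals lay above all corn oil totals, an order that 63.3% of the 166 miRNAs shared before normalization. After quantile normalization miR-34a-5p rose by 1.71 (limma adjusted p = 0.026). miR-378a-3p, encoded within the metabolic coactivator gene Ppargc1b, had total signals of 63.5, 55.9 and 55.9 in the controls and 47.2, 47.8 and 93.4 after CCl4. It fell by 1.37 after quantile normalization (limma adjusted p = 0.011), but its change was 0.03 without normalization. The call of miR-34a-5p was lost in 6 of 21 alternatives. That of miR-378a-3p was lost in 10, beside the setting without normalization, in which miR-34a-5p kept its call. miR-122-5p, the main hepatocyte miRNA, had total signals of 17855, 16613 and 18345 in the controls and 13109.9, 15544 and 2158 after CCl4. Only the third CCl4 array was far from the others. Its change was -1.49 (adjusted p = 0.47), the second largest in size of this list. Without the third CCl4 array 4 of the 15 were called, of which 2 were higher and 2 lower, where 16.9% of all miRNAs were called.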

How the data were processed

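Cy3-labeled total liver RNA (100 ng per mouse) was hybridized to Agilent mouse miRNA arrays. The authors extracted the scans with Feature Extraction 11.0.1.1 and deposited spot, probe and total signals as linear intensity values after background subtraction, with no normalization between arrays. They also deposited quantile-normalized intensities of 111 miRNAs, where the columns of corn oil replicates 1, 2 and 3 hold the rank order of scanner arrays 2, 3 and 1, which leaves group means unchanged.

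After the order of steps in the paper's methods, miRNAs flagged as detected on every array (166 of 1247, control spots left out) were quantile normalized as log2 total signals, and treatment was fitted with limma 3.58.1 (lmFit, eBayes; R 4.3.3). This does not rebuild the deposited table, which holds 111 miRNAs, and whose change of miR-122-5p, -1.41, equals that after quantile normalization on the linear scale and not that on the log2 scale, -1.49. The p was adjusted by Benjamini-Hochberg over all miRNAs tested, and 48 miRNAs had an unadjusted p under 0.05. Intervals are 95% intervals of the fit. Ratios within arrays were compared by exact permutation (scipy 1.17.1, Python 3.11.15). The fit was tested on simulated data, drawn independently, with no array that stood apart and no normalization step. That test therefore does not cover the effect of the third CCl4 array or of the normalization.

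Members, lists and tests were chosen with earlier results of these data known. The rule for named miRNAs covered the members, the listed relatives in the group of miR-15 and miR-16, the called metabolic miRNAs and the 3 of that list with the largest changes, the 5 nearest to each 3p strand, and miR-122-5p. Nearest miRNAs with an array left out and the undetected ones were named after their values were seen. The number of arrays limits the precision, and each array is 1 mouse.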

Additional observations from a re-analysis of the deposited data

Results flagged for a closer look

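Of the miRNAs listed above that entered no test, 3 were detected on the third CCl4 array and on no other. The total signal there was 57.4 for miR-503-5p of the group with miR-15 and miR-16, 11.1 for miR-370-3p and 6.75 for miR-33-5p, a regulator of cholesterol export. All 40 spots of miR-503-5p were well above background on that array, against at most 47.5% for miR-370-3p and 2.5% for miR-33-5p on any CCl4 array. These 3 are given because they are signals that no comparison used and that were undetected on all corn oil arrays. More miRNAs were detected on the third CCl4 array in general. It had 334 of 1247, against 245 and 227 on the first and second CCl4 arrays and 186 to 193 on the corn oil arrays. Detection on that array is thus not particular to these miRNAs, and the share detected there alone was not counted.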

How the results depend on the processing

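Of 21 alternatives, the change of miR-103-3p kept its direction in 18 and that of miR-107-3p in 19. Not all of these are separate checks of direction. The replicate block and the eBayes trend leave the change as it is by construction. No filter and quantile normalization before the filter gave the same change as each other. An adjusted p under 0.05 was reached in 3 for each, those that left out or weighted down CCl4 replicate 3 after a scaling of the arrays. Without normalization between arrays the changes were 1.13 and 0.71, as all arrays then keep their own brightness, and there miR-15a-5p was at 0.48, miR-16-5p at 0.77 and miR-378a-3p at 0.029. With array weights they were -0.69 and -0.93. Leaving out 1 array gave -0.64 to 0.12 for miR-103-3p and -0.84 to -0.41 for miR-107-3p. Settings chosen after seeing the data left out CCl4 replicate 3 and changed the scaling. With the 75th percentile the pair was at -0.35 and -0.59, and 1 of the 6 tested miRNAs of the group with miR-15 and miR-16 was called, of 26 of 166 called in all. Without normalization it was at 0.29 and 0.046, with 4 of those 6 called, 41 of 166 called in all (41 higher and 0 lower), miR-15a-5p at 0.067 and miR-16-5p at 0.21. The number called in all, 20, became 0 with the 75th percentile over all miRNAs, which is the value of an undetected miRNA on 5 arrays, and there miR-15b-5p was at -0.43 and miR-195a-5p at -0.10. It became 32 with miRNAs detected in 1 group, 6 with no filter, 4 with normexp, 12 with the deposited values and 31 with array weights. Leaving out 1 array gave 5 to 28, with 7, 5 and 6 without corn oil replicates 1, 2 and 3 and 5 without CCl4 replicate 1. The 2 called metabolic miRNAs became 0 with the 75th percentile over all miRNAs and with no filter, 1 with normexp, 4 with array weights and 0 to 4 with 1 array left out. For the group with miR-15 and miR-16 that range was 0 to 0. miR-122-5p ranged from -2.25 to 0.0 with 1 array left out, and is 0.0 without CCl4 replicate 3, where it holds the same rank on all arrays. With the 75th percentile and without CCl4 replicate 3, miR-122-5p was at -0.94 (limma adjusted p = 0.0066). Other causes were not tested.

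The replicate numbers were not taken as pairs of samples. The deviations of same-numbered arrays correlated at -0.18, 0.11 and 0.03, and so few arrays cannot show whether the samples are paired. With the replicate block, 6 miRNAs were called and 0 of the metabolic list, and the pair was at -0.21 and -0.65 with adjusted p of 0.75 and 0.24 by limma. The within-array ratio of the pair was higher after CCl4 by 0.24 to 0.56 in the 12 alternatives that can move it, of which 0.24 was without CCl4 replicate 3. Scaling whole arrays leaves this ratio as it is by construction. The depth of an array is its signal over background. Both 5p strands were undetected on every array, also on CCl4 replicate 3, where 334 miRNAs were detected. The part of depth in this was not tested.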
